A study of Rattus norvegicus with 45 samples.

Results

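Neuronal calcium entry, store and signalling genes are described here in the hippocampus of ageing and calorie-restricted rats. The set lists 44 genes for voltage-gated calcium channels and their auxiliary subunits, channels and pumps of the internal store, plasma membrane pumps and exchangers, calmodulin, calmodulin-dependent kinases, calcineurin, protein kinase C and calcium sensors. A gene was taken by its symbol in the deposited annotation, and its brightest probe set stands for it. For 43 of them at least 1 probe set was found, 84 probe sets in all, out of 13429 genes and 31099 probe sets on the array; no probe set carried the symbol of Cacna2d2. After the filter on low signals 40 members could be tested, and Cacna1e, Slc8a1 and Slc8a3 could not. The tested probe set of Cacna1a was called present on 0 of the 45 arrays, so its values do not measure that channel gene. Its dimmer probe sets fell below the filter. The authors' deposited tables over all regions list 1 of them with a signed fold of 1.89 for age and another with 1.38 for diet.

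The animals were 15 male F344xBN rats, and 3 hippocampal regions, CA1, CA3 and dentate gyrus (DG), were hybridised to 1 Affymetrix RAE 230 2.0 array each, 45 arrays in all. Old rats on restricted food were 28 months of age and comprised 3 good and 3 poor performers (CRO_GP and CRO_PP); their restriction was 10% at 14 weeks of age, then 25%, then 40% from 17 weeks. Old rats fed ad libitum were also 28 months and comprised 3 good and 3 poor performers (ALO_GP and ALO_PP), and 3 middle-aged rats fed ad libitum were 18 months (ALMA). There was no middle-aged restricted group, and the sources used here do not name the test that sorted good from poor performers. Each animal gave a separate RNA sample, and the small number of arrays limits the precision of every value.

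Calcium enters neurons through voltage-gated channels, whose pore protein (a Cacna1 gene) is carried to the membrane and tuned by beta subunits (Cacnb genes) and alpha2delta subunits. Inside the cell, IP3 receptors and ryanodine receptors release calcium from the endoplasmic reticulum, SERCA pumps refill that store, and plasma membrane pumps and sodium-calcium exchangers expel calcium. Calmodulin and small calcium sensors bind the ion and pass the signal to kinases such as CaMKII and to the phosphatase calcineurin, which set synaptic strength in the hippocampus.

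Signals below are those of the deposited value table, on a linear scale with the same trimmed mean on every array (150 after trimming 2% at the ends). Differences are log2(signal + 16) with the limma standard error, and a fold on that scale understates the change of dim genes. A gene passed at an adjusted p of 0.05, over 18659 probe sets. The authors' dChip signals of the same arrays served as the second reading, and probe set brightness is never compared between genes. CA1, CA3 and dentate granule markers were each higher in their own region: 3 of 3 tested CA1 markers were lower in CA3 and in DG than in CA1, 4 of 5 CA3 markers were higher in CA3 than in CA1, and 3 of 3 granule cell markers were higher in DG than in either other region.

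The arrays fall into 3 sets by a bacterial poly-A control added before labelling, DapX, and these sets follow the classes. DapX signals were 257 to 332 on the 9 middle-aged arrays, 70.0 to 128 on the 18 old ad libitum arrays and 4 restricted arrays, and 1.78 to 6.76 on the other 14 restricted arrays. Age and the control level therefore cannot be told apart in any region, nor can diet and the control level in DG. Of the restricted arrays, the 3 of good performers in CA1 and 1 of good performers in CA3 had the control level of the old ad libitum arrays. The CA1 and CA3 arrays of 1 restricted poor performer, which the authors' sheet marks as outliers, had 3'/5' signal ratios of 7.64 and 6.08 for GAPDH and 20.5 and 39.3 for beta-actin, while all other arrays had at most 3.37 and 14.97. Results on diet, and the counts for age in CA1 and CA3, are therefore also given without that animal's array. The fits of age use it in their estimate of the spread.

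Promoters of 4 members that were higher in old than in middle-aged CA1 and CA3 in both signals are shown. Under restriction these genes did not move alike: Camk1 was called lower in CA1 in the value table, while Cacnb3, Cacng2 and Necab2 were called higher in DG. RefSeq's table for GRCr8 holds a promoter for 33 of the 43 genes, with several starts for Cacna2d1 and Cacnb2 and so 36 promoters. Printed are the 250 bases before the start, 5' to 3' on the gene's strand, with every GC box (GGGCGG on either strand) in capitals.
Cacnb3, chr7:131666301-131666550, plus strand: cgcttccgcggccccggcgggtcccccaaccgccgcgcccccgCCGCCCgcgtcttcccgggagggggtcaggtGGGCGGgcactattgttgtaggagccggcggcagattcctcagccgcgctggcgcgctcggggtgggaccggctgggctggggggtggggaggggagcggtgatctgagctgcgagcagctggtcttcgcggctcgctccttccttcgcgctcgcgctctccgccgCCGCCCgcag
Cacng2, chr7:111577758-111578007, minus strand: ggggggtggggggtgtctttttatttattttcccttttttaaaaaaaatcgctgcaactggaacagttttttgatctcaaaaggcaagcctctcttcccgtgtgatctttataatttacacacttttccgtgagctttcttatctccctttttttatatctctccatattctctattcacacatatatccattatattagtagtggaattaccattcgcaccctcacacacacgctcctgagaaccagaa
Camk1, chr4:148047146-148047395, minus strand: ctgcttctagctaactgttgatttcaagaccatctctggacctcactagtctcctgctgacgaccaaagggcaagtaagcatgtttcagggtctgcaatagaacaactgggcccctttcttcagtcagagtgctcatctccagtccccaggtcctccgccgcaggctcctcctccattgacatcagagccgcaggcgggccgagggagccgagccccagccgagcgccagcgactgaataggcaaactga
Necab2, chr19:64409749-64409998, plus strand: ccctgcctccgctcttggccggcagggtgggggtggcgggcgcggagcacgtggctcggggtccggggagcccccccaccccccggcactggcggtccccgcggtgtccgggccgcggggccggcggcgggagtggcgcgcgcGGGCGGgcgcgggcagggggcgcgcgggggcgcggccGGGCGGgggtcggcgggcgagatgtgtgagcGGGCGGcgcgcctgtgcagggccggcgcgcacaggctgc
Cacnb3 and Necab2 each hold 3 GC boxes, with a GC content of 76.4% and 85.6%. Camk1 and Cacng2 hold none, with a GC content of 57.2% and 38.4%. A GC box stands in 69.4% of the 36 promoters of members, against 30.5% of 33469 promoters in the table. The members' promoters had a median GC content of 72.0%, against 51.2% for all, so the base composition differs along with the motif. The cyclic AMP response element TGACGTCA stands in 0 of the 36 windows and in 1.6% of all, and its shorter form TGACG, which lies within it, in 30.6% and 18.2%. The 4 promoters printed thus share neither the motif nor the base composition.

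In CA1 of old rats, signals of the channel beta subunits Cacnb1 and Cacnb3, the gamma subunit relative Cacng2, CaM kinase I and the calcium sensor Necab2 were higher, and no member was called lower. Of 4 beta subunits tested 2 were called; Cacnb2 (-0.27, adjusted p = 0.317) and Cacnb4 (-0.23, adjusted p = 0.315) had negative values that did not pass. Of 40 members 7 were higher and 0 lower in old than in middle-aged rats, against 9.61% of the 9942 genes tested called higher and 3.19% called lower. The median log2 difference was 0.02 for the members and 0.02 for all genes tested. In the dChip signals 5 of 39 members were higher and 0 lower, beside 23.5% of genes higher. In bulk tissue, fewer cells of a type and less RNA per cell cannot be told apart, and this holds for every difference below.

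Camk1 encodes CaM kinase I, which is switched on by calmodulin and by an upstream kinase. Its signal was 165 to 184 (median 176) on the 6 old CA1 arrays, against 116, 114 and 116 on the 3 middle-aged arrays. Every old array lay above every middle-aged array. The log2 difference was 0.53 ± 0.07 (SE), or 1.45-fold (adjusted p = 0.000412), and 0.28 in dChip (adjusted p = 0.0225).

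Cacnb3, the beta 3 subunit, is a main partner of N-type and L-type channels in brain. Its signal ran from 144 to 195 (median 175) on old CA1 arrays, against 61.8, 93.4 and 88.5 on middle-aged arrays. The groups did not overlap, and the difference was 0.97 ± 0.15, or 1.96-fold (adjusted p = 0.000968). The dChip difference was 0.49 (adjusted p = 0.003).

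Cacng2 encodes stargazin, a relative of channel gamma subunits that carries AMPA receptors to the synapse. Old CA1 arrays had 126 to 176 (median 144), against 60.2, 101 and 70.0 on middle-aged arrays, again with no overlap. The difference was 0.84 ± 0.13, or 1.79-fold (adjusted p = 0.00131), and 0.62 in dChip (adjusted p = 0.000744).

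Necab2, a neuronal EF-hand calcium-binding protein, had 489 to 656 (median 602) on old CA1 arrays, against 258, 379 and 425 on middle-aged arrays. No old array reached down to the middle-aged range. Its difference was 0.75 ± 0.15, or 1.68-fold (adjusted p = 0.0061), with 0.70 in dChip.

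Cacnb1, the beta 1 subunit, was higher by 0.85 ± 0.18 in old CA1 (adjusted p = 0.0095) with no overlap, and by 0.84 in dChip. A dimmer probe set of Cacnb1 gave -0.17 in the same comparison (adjusted p = 0.39), so the probe sets of this gene do not move alike. Camk2g, the gamma chain of CaMKII, was higher by 0.48 (adjusted p = 0.0324), and its groups overlapped. Cacna1g, the T-type channel Cav3.1, also passed (adjusted p = 0.0146), but its probe set was called present on 2 of the 45 arrays. Its mean signal of 18.4 lay just above the filter cut of 17.1, and its middle-aged CA1 arrays lay below that cut. It thus entered the test through the old groups. Its signals of 21.3 to 27.2 and 3.44 to 15.2 in old and middle-aged CA1 are not read as a change, though the counts of calls include it. Camk2g and Cacna1g did not pass in dChip (adjusted p = 0.0987 and 0.0726), and, with each of the 15 CA1 arrays left out in turn, they missed the threshold 6 and 2 times, each of them without middle-aged replicate 3. The other 5 members passed every time. Without the restricted CA1 array marked as an outlier, 8 members were higher and 1 lower, beside 20.7% of all probe sets called in place of 10.6%.

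**Figure D1:**
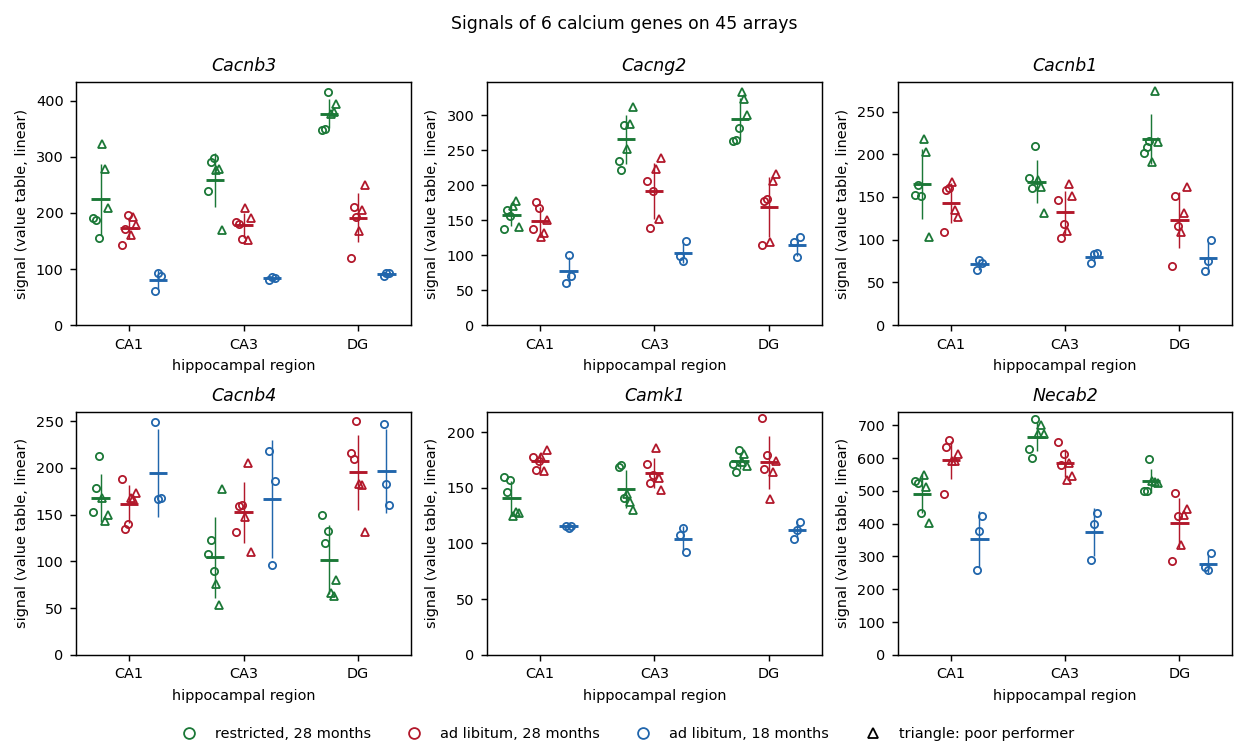
Linear signal in the value table (y axis, starting at 0) of 6 genes by region (x axis), with restricted old, ad libitum old and ad libitum middle-aged arrays from left to right. Symbols are arrays, triangles poor performers, thick lines means and thin lines 1 SD (n = 6, 6 and 3). Cacnb3, for example, was at 348 to 416 on restricted DG arrays, 120 to 250 on old ad libitum DG arrays and 88.3 to 93.1 on middle-aged DG arrays.

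In CA3, the age comparison called the same 7 members higher as in CA1, along with the alpha chain of CaMKII and an exchanger. Of 40 members 9 were higher and 2 lower, against 7.8% and 2.88% of all genes. The members' median difference was 0.09, against 0.02 for all genes. In dChip 10 of 39 were higher and 1 lower, with 19% of all genes higher and 4.77% lower.

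Camk2g had 131 to 159 (median 145) on old CA3 arrays, against 97.1, 72.7 and 85.6 on middle-aged arrays, without overlap. The difference was 0.67 ± 0.10, or 1.6-fold (adjusted p = 0.000979), and dChip gave 0.40 (adjusted p = 0.0294). Cacnb3 had 152 to 209 (median 182) on old arrays, against 81.2, 86.3 and 83.4, a difference of 0.95 ± 0.14 or 1.94-fold (adjusted p = 0.00143). Here too the groups did not overlap.

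Camk1 had 148 to 185 (median 160) on old CA3 arrays, against 107, 114 and 91.9 on middle-aged arrays. Its difference of 0.58 ± 0.10 (adjusted p = 0.0028) came with no overlap and with 0.23 in dChip. Cacna1g had 15.3 to 20.5 (median 18.996), against 10.9, 2.39 and 5.34 (adjusted p = 0.00252). It was called present on 0 of these arrays, so again no change is read from it.

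Necab2 (0.64 ± 0.11, adjusted p = 0.00343), Cacng2 (0.78 ± 0.15, adjusted p = 0.00673) and Cacnb1 (0.61 ± 0.14, adjusted p = 0.014) were also higher in old CA3 in both signals. Camk2d, the delta chain of CaMKII, was lower in old CA3 (-0.39 ± 0.11, adjusted p = 0.0356), with -0.29 in dChip (adjusted p = 0.0362). Camk2a, the chain that makes up much of CaMKII in forebrain neurons, was 0.74 higher in the value table (adjusted p = 0.00956), while dChip gave 0.00 for the same probe set (adjusted p = 0.996). Slc8a2, the brain sodium-calcium exchanger NCX2, was 0.43 higher (adjusted p = 0.0278), but -0.14 in dChip, so its direction depends on the signal used. Ppp3cb, a catalytic subunit of calcineurin, was -0.30 ± 0.09 in old CA3 (adjusted p = 0.0443) and did not pass in dChip (adjusted p = 0.179).

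Cacng3, another transmembrane AMPA receptor regulator, passed in dChip alone in CA3, with 1.06 there (adjusted p = 0.0063) and 0.70 in the value table (adjusted p = 0.093). Likewise Ryr2, the ryanodine receptor of the store, had 0.47 in dChip (adjusted p = 0.039) and 0.45 in the value table (adjusted p = 0.38). Members called in dChip alone are not all named here. Without middle-aged replicate 1 or 2, the count of members called in CA3 was 7 or 6 in place of 11, and Cacnb1 did not pass (adjusted p = 0.0724 and 0.0504). The share of all probe sets called was then 4.35% or 3.48% in place of 8.87%, so the count moved along with the whole array. Without the restricted CA3 array marked as an outlier, 12 members were higher and 2 lower, beside 19.3% of all probe sets called. With each of the 15 arrays left out in turn, Ppp3cb missed the threshold 11 times, Camk2d 9, Slc8a2 6, Cacnb1 2 and Camk2a 1. The other 6 members passed every time, but they include Cacna1g, from which no change is read.

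In DG, Camk1 was the member that passed with age in both signals. The value table called 4 of 40 members higher and 2 lower, against 9.6% and 3.46% of all genes, so the members' share was close to that of the array. The medians were 0.06 for the members and 0.05 for all genes. Camk1 had 140 to 212 (median 170) on old DG arrays, against 104, 112 and 120 on middle-aged arrays, with no overlap. Its difference was 0.55 ± 0.09, or 1.47-fold (adjusted p = 0.00168), and 0.24 in dChip (adjusted p = 0.0437).

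Cacnb3 was 0.92 ± 0.14 higher in old DG (adjusted p = 0.00157) without overlap, but dChip gave 0.29 (adjusted p = 0.161). Camk2g (0.43) and Necab2 (0.49) were higher with overlapping groups, and the IP3 receptor gene Itpr1 (-0.36) and Ppp3cb (-0.32) were lower. Each of those 4 had an adjusted p between 0.0399 and 0.0451, did not pass in dChip, and missed the threshold 10 to 13 times with each of the 15 arrays left out in turn, while Camk1 and Cacnb3 passed every time. The count of 6 was 2 without ALMA replicate 2, ALO_GP replicate 3, ALO_PP replicate 3 or any of the CRO_GP replicates, and 3 without ALMA replicate 1 or 3. In these settings 4.92% to 10.2% of all probe sets were called, in place of 11.4%. Cacng2 (0.48, adjusted p = 0.0792) and Cacnb1 (0.53, adjusted p = 0.0871) had positive values in DG that did not pass.

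A difference of the age effect between regions was tested directly with all 45 arrays, and 0 of 40 members passed, as did 0% of all genes. At an unadjusted p under 0.05 the count of members was also 0, and in dChip 0 members passed. Microglia markers moved with age in all regions: 4 of 6 were higher in CA1 (summed signals 894 to 1894 old, 509 to 717 middle-aged), 4 of 6 in CA3 and 3 of 6 in DG. Of 4 pan-neuronal markers 1 was higher in CA1 and 0 in the other regions, and 0 were lower. In CA3, 1 of 3 CA1 markers was also higher with age, and their summed signal was 1954 to 4810 on old arrays and 1072 to 2152 on middle-aged arrays. Meninges and fibroblast markers there summed to 317 to 633 on old and 703 to 854 on middle-aged arrays, with 0 of 4 tested called. Oligodendrocyte markers summed to 11886 to 15920 and 16077 to 17985, with 1 of 6 higher and 1 lower. Choroid plexus markers overlapped, with 62.7 to 1575 on old and 323 to 3931 on middle-aged CA3 arrays. The part of these markers in the results was not tested.

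**Figure D2:**
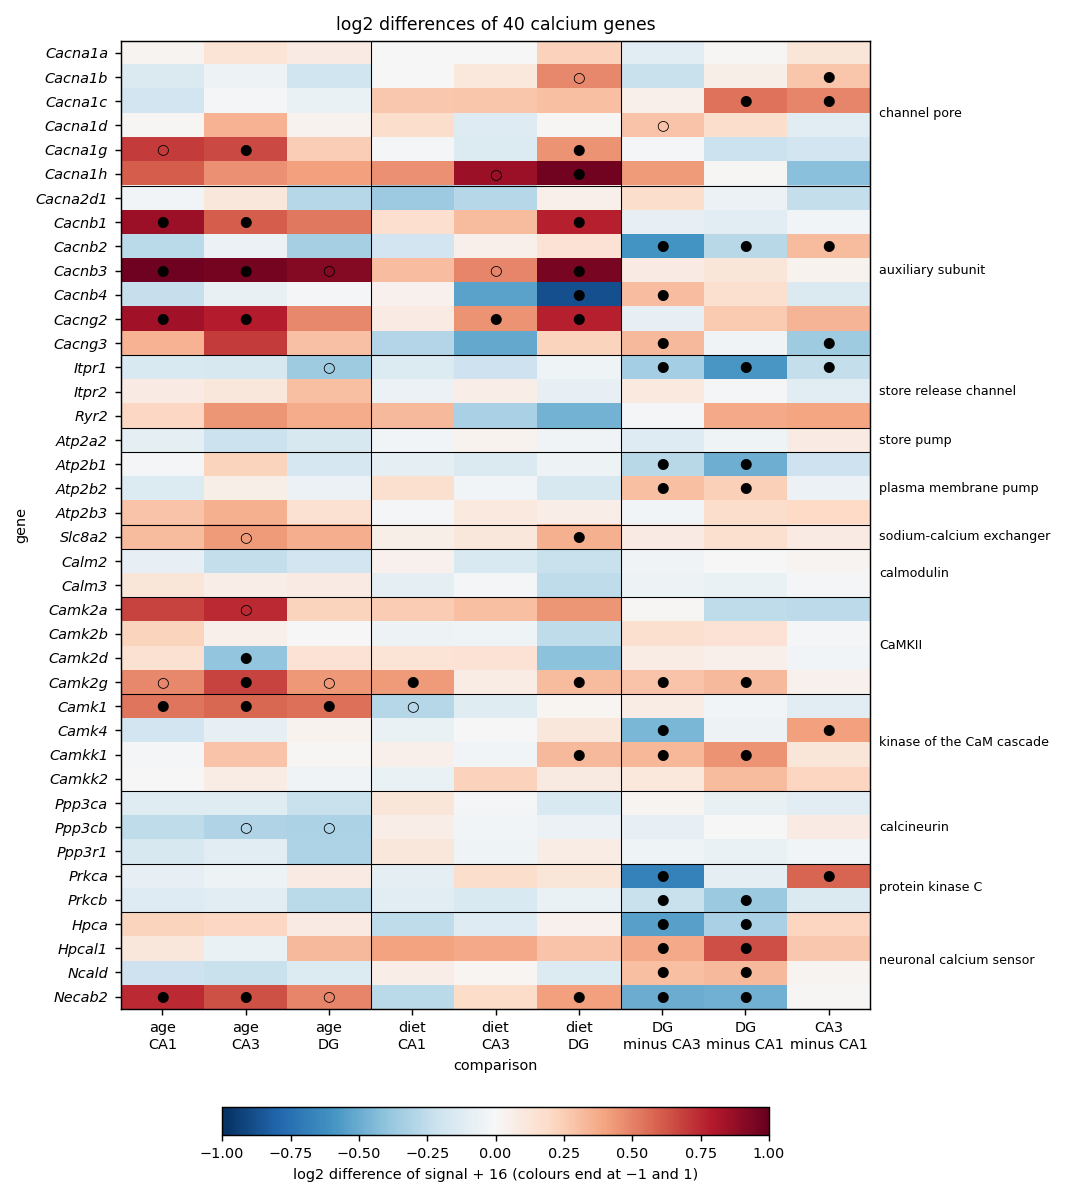
log2 differences (colour, red higher in the first-named group) of the 40 tested genes (rows, by family) in 9 comparisons: old minus middle-aged, restricted minus ad libitum, and pairs of regions. Filled circles passed in both signals and open circles in the value table alone. Cacnb3 lies at 0.97, 0.95 and 0.92 in the age columns of CA1, CA3 and DG, and under diet in DG Cacnb1, Cacnb3 and Cacng2 are higher and Cacnb4 is lower.

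Store and extrusion genes showed few calls with age in the fits that keep every array, and the values below are from those fits. Atp2a2, the SERCA pump that refills the store, had -0.09 in CA1, -0.21 in CA3 and -0.16 in DG, with adjusted p of 0.55, 0.16 and 0.33. The plasma membrane pumps Atp2b1, Atp2b2 and Atp2b3 lay between -0.17 and 0.35 in the 3 age comparisons, and 0 of 3 passed in any region. Dimmer probe sets of Atp2b3 (0.24, 0.38 and 0.20) and Atp2b2 (0.16, 0.33 and 0.47) did not pass with age in CA1, CA3 or DG either. The authors' deposited tables of age differences do list them, Atp2b3 with a signed fold of 1.87 in CA1 and 1.82 in CA3, and Atp2b2 with 1.68 over all regions. Calmodulin genes Calm2 and Calm3 lay between -0.24 and 0.12, with 0 calls; the Calm2 probe set is also annotated to a pseudogene copy, so its signal is uncertain. The calcineurin genes Ppp3ca, Ppp3cb and Ppp3r1 had negative values in all 3 regions, of which Ppp3cb passed in CA3 and DG. The L-type pore genes Cacna1c and Cacna1d, for channels long studied in hippocampal ageing, lay between -0.19 and 0.35 with adjusted p of 0.053 or more.

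Restriction gave the most member calls in DG. Of 7 genes grouped as auxiliary subunits, 3 were higher in restricted than in ad libitum old rats and 1 was lower. That group counts Cacng2, which is among the 3, and Cacng3, both AMPA receptor regulators. Of 6 pore genes 3 were higher. Of these pore genes, Cacna1h alone passed in both signals with a probe set called present in DG. Cacna1b did not pass in dChip (adjusted p = 0.656), and Cacna1g was not called present on any DG array. The 6 pore genes also include Cacna1a, whose probe set was never called present. Of 40 members 10 were higher and 1 lower, against 12.9% and 10.7% of all genes. The members' median was 0.07, against -0.01 for all genes. In dChip 11 of 38 were higher and 2 lower, beside 12.6% of genes higher and 17.9% lower. The same call was made in both signals for 10 members, Cacna1g included. Without CRO_GP replicate 3 the count was 7 in place of 11, beside 17.1% of all probe sets in place of 22.9%. These comparisons share the old ad libitum arrays with the age comparisons.

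Cacnb3 had 348 to 416 (median 378) on restricted DG arrays, against 120 to 250 (median 199) on ad libitum DG arrays. The groups did not overlap, and the difference was 0.95 ± 0.12, or 1.93-fold (adjusted p = 0.000242), with 0.42 in dChip (adjusted p = 0.00277). Cacng2 had 264 to 334 (median 292), against 115 to 217 (median 179), also without overlap. Its difference was 0.78 ± 0.14, or 1.71-fold (adjusted p = 0.0017), and 0.71 in dChip.

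Cacnb1 had 191 to 274 (median 211) on restricted DG arrays, against 69.2 to 162 (median 124) on ad libitum arrays. Its difference was 0.78 ± 0.15 (adjusted p = 0.00363) without overlap, and its dimmer probe set gave 0.29 (adjusted p = 0.019). Cacnb3, Cacng2 and Cacnb1 are among the members that were higher with age in CA1 and CA3.

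Cacnb4, the beta 4 subunit, was the only member called lower. It had 62.9 to 150 (median 100) on restricted DG arrays, against 132 to 250 (median 196) on ad libitum arrays, with 0 of 6 restricted arrays above the ad libitum mean but with overlapping ranges. The difference was -0.88 ± 0.11, or 1.84-fold lower (adjusted p = 0.000242), and -0.94 in dChip (adjusted p = 0.000717). A second, dim probe set of Cacnb4 gave 0.04 (adjusted p = 0.83), so this change rests on 1 probe set. Between performers in DG, Cacnb4 gave -0.62 ± 0.11 for poor minus good (adjusted p = 0.112).

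Cacna1h, the T-type channel Cav3.2, was higher by 0.96 ± 0.19 in restricted DG (adjusted p = 0.00378), with 189 to 281 (median 235), against 57.1 to 189 (median 123). The N-type pore gene Cacna1b was 0.48 higher in the value table (adjusted p = 0.0156) but 0.05 in dChip (adjusted p = 0.656). Cacna1g was also called higher, with a probe set called present on 0 DG arrays, so no change is read from it. Slc8a2 (0.36), Camk2g (0.32), Camkk1 (0.33), the upstream kinase of the CaM kinase cascade, and Necab2 (0.41) were higher with adjusted p between 0.0228 and 0.0494. All 4 also passed in dChip, but missed the threshold 6, 10, 12 and 2 times with each of the 15 arrays left out in turn. The other 7 members, again with Cacna1g among them, passed every time.

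Good performers taken alone gave 4 members higher and 1 lower in DG, against 5.28% and 3.23% of all 18659 probe sets. Poor performers taken alone gave 2 higher and 3 lower, against 3.74% and 2.82%. A dimmer probe set of Atp2b3, whose brightest gave 0.07, was 0.91 higher in restricted DG (adjusted p = 0.00118) and 0.60 higher in restricted CA3 (adjusted p = 0.0385). Members with several probe sets thus give different readings. With every probe set of a member counted the calls number 20, in a fit that called 22.9% of all probe sets.

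In CA3 the diet comparison called 3 of 40 members higher and 0 lower, against 5.83% and 4.27% of all genes. Cacng2 passed in both signals, with 223 to 312 (median 269) on restricted arrays, against 138 to 239 (median 199) on ad libitum arrays. The ranges overlapped, and the difference was 0.45 ± 0.12 (adjusted p = 0.0369), with 0.53 in dChip (adjusted p = 0.02). Cacna1h (0.85, adjusted p = 0.0254) and Cacnb3 (0.49, adjusted p = 0.0214) passed in the value table alone. With the poly-A set as a term in the fit, Cacng2, Cacna1h and Cacnb3 gave 0.37, 0.18 and 0.25. Only 1 restricted CA3 array shared the control level of the ad libitum arrays. The diet term of that fit rests on this array, so no call is drawn from it. Without the array of the animal marked as an outlier, 9 members passed, and these 3 were among them (adjusted p = 0.0337, 0.0165 and 0.000726). The share of all probe sets called was 21.7% without that array and 9.14% with it, so the members' count moved along with that of the whole array. Without ALO_PP replicate 3 or CRO_GP replicate 3 the count was 0, beside 4.3% and 3.67% of all probe sets. Without ALO_GP replicate 2 or 3 it was 1 (5.22% and 4.98%), and without ALO_PP replicate 4 it was 5 (10.3%).

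In CA1, diet called 1 of 40 members higher and 1 lower, against 3.41% and 2.64% of all genes. Camk2g had 158 to 209 (median 188) on restricted arrays, against 115 to 159 (median 128) on ad libitum arrays, a difference of 0.42 ± 0.11 (adjusted p = 0.0351) with overlapping ranges. The dChip difference was 0.56 (adjusted p = 0.0205). Camk1, which rose with age in CA1, was lower under restriction (-0.28 ± 0.06, adjusted p = 0.02), with 125 to 160 against 165 to 184. dChip gave -0.04 (adjusted p = 0.789), and restricted good performers against all old ad libitum rats, all on arrays of 1 control level, gave -0.16 (adjusted p = 0.322). Restricted against ad libitum good performers gave -0.15 (adjusted p = 0.695). These last 2 comparisons called 0.00536% and 0% of all probe sets. Missing the threshold in them therefore says nothing about Camk1 in particular. Without the array marked as an outlier 4 members passed, beside 9.76% of all probe sets in place of 6.88%. Without ALO_PP replicate 3 or CRO_GP replicate 3 the count was 0, beside 1.7% and 0.922%. Without ALO_GP replicate 2 or 3, ALO_PP replicate 1 or 2, or CRO_GP replicate 2 it was 1, beside 1.46%, 3.32%, 7.72%, 1.09% and 2.7%.

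Diet by region was tested over all 3 regions, and 0 of 40 members passed, against 0.382% of all genes. At an unadjusted p under 0.05 there were 10 members, with Necab2 (adjusted p = 0.0525), Cacnb3 (0.0748), Cacnb4 (0.0771) and Cacng2 (0.0776) nearest to the threshold. In dChip Necab2 passed (adjusted p = 0.0442): its diet difference was -0.27 in CA1, 0.18 in CA3 and 0.41 in DG in the value table. The larger diet effects in DG are therefore not shown to differ from those of the other regions for the beta subunits or Cacng2.

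Some other marker lists also moved under restriction in DG. There 2 of 5 CA3 markers were higher, with summed signals of 1557 to 1891 on restricted and 840 to 1583 on ad libitum arrays, and 2 of 5 astrocyte and 2 of 6 oligodendrocyte markers were lower. Of 4 pan-neuronal markers 1 was higher and 1 lower, and of 6 microglia markers 1 was lower. In CA3 under restriction 1 of 3 CA1 markers was lower, with summed signals of 1288 to 2465 on restricted and 1954 to 4810 on ad libitum arrays, as were 2 of 6 microglia, 1 of 5 astrocyte and 1 of 6 interneuron markers. In CA1 2 of 6 microglia markers were lower (567 to 1000.1 on restricted and 894 to 1894 on ad libitum arrays), and 1 of 5 endothelial and mural markers. Their part in the results on diet was not tested.

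**Figure D3:**
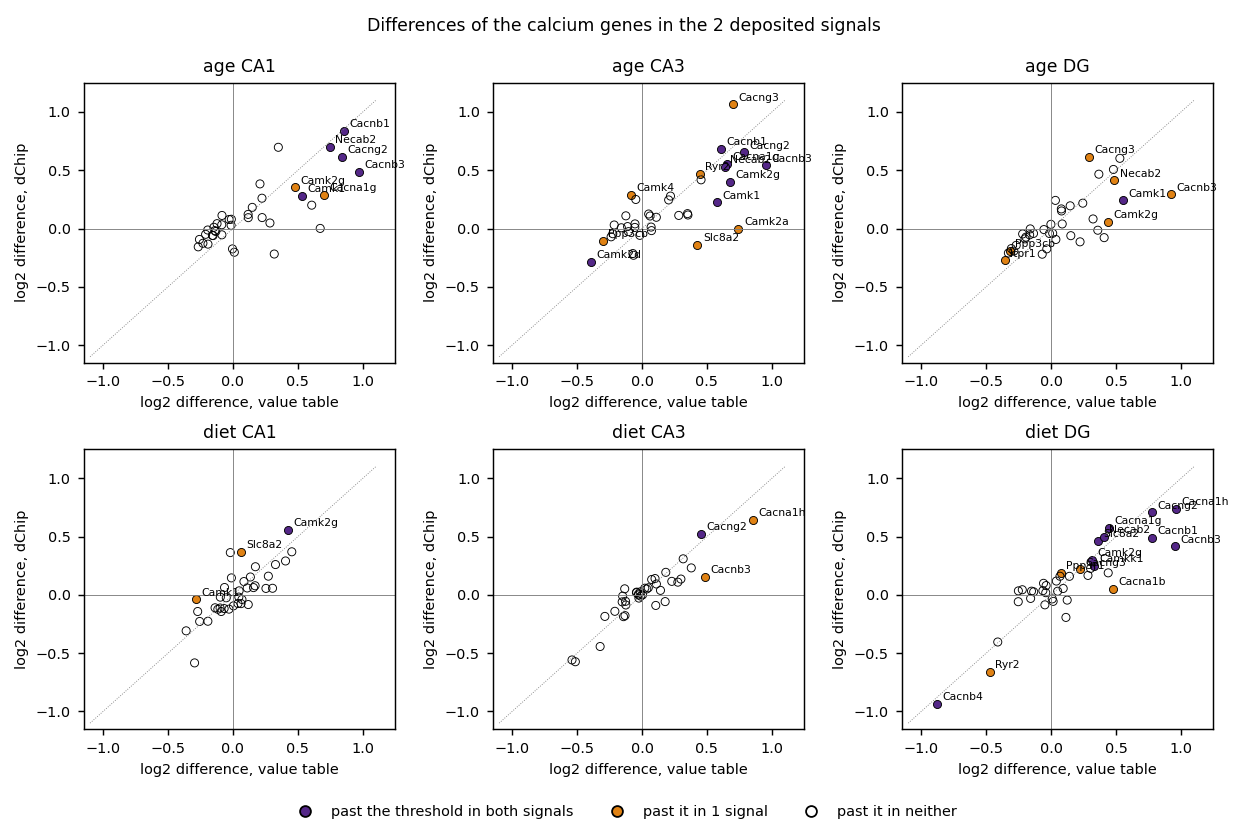
log2 differences of the members in the value table (x axis) and in dChip (y axis) for age (old minus middle-aged, top) and diet (restricted minus ad libitum, bottom) in CA1, CA3 and DG. Purple points passed in both signals, orange in 1 and open points in neither, and the dotted line marks equal values. Cacnb1, Cacng2 and Necab2 lie near that line, while Camk2a in CA3 lies at 0.74 in the value table and 0.00 in dChip.

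No member passed with performance. Poor minus good performers over both diets gave 0 of 40 calls in each region, against 0.0101% of all genes in CA1, 0% in CA3 and 0.0201% in DG. At an unadjusted p under 0.05 there were 1, 0 and 3 members, and dChip called 0 in each region. Cacnb3 in CA1 was the first of these (0.31), and Cacnb4 (-0.62), Ryr2 (-0.46) and Camk2g (0.30) were those in DG.

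The authors' deposited table of age differences over all regions lists Cacnb1 with a signed fold of 1.66, Cacnb3 with 1.36, Cacng2 with 1.53 and Necab2 with 1.47, each at an unadjusted p of at most 0.001. The same deposited table of the authors lists the dimmer probe set of Cacnb1 in the other direction, at -1.12. Ppp3cb is also listed as lower, at -1.09 over all regions and at -1.14 in DG. Across the authors' deposited table of diet differences in DG, Cacnb3 (1.40), Cacng2 (1.59) and Cacnb1 (1.38) are listed. These folds rest on the same dChip signals.

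The other genes of calcium signalling, a list of 67 of which 47 were tested, gave 7 higher and 1 lower with age in CA1 (14.9% and 2.13%, against 9.61% and 3.19% of all genes). In CA3 they gave 11 and 1 (23.4% and 2.13%, against 7.8% and 2.88%), and in DG 5 and 5 (10.6% each, against 9.6% and 3.46%). Hpcal4, a neuronal calcium sensor of the visinin family, was higher with age by 0.87, 1.05 and 0.91 in the 3 regions and lower under restriction, with -0.49, -0.70 and -0.37. Camk2n1, an inhibitor of CaMKII, was higher in old rats of every region, with 1.07, 0.88 and 0.98 in the same order of CA1, CA3 and DG. Orai1, the store-operated calcium channel, was higher by 0.60, 0.60 and 0.56. Under restriction the counts were 1 higher and 3 lower in CA1 (2.13% and 6.38%, against 3.41% and 2.64% of all genes) and 2 and 5 in CA3 (4.26% and 10.6%, against 5.83% and 4.27%). In DG they were 9 and 1 (19.1% and 2.13%, against 12.9% and 10.7%). Stim1, the store sensor that opens Orai channels, was 0.44 higher in CA3 and 0.46 higher in DG under restriction.

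Between regions, the members were tested within the 9 ad libitum animals, each animal as a block. Control level and region are not confounded here, since the 3 arrays of an animal belong to 1 set. CA3 against CA1 gave 5 members higher and 2 lower of 40, against 7.52% and 6.84% of all genes. DG against CA1 gave 6 higher and 6 lower, against 6.51% and 6.37%, and DG against CA3 gave 8 and 8, against 13.4% and 14.7%. Of these calls, 7 of 7, 12 of 12 and 15 of 16 were also made in dChip. Without ALMA replicate 3 or ALO_PP replicate 3, the count between CA3 and CA1 was 4 or 3 in place of 7. The share of all probe sets called in these settings is not given here, so no change particular to the members is read from them.

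Prkca, the alpha isoform of protein kinase C, was highest in CA3. It had 68.0 to 100 (median 92.6) in CA3, against 43.02 to 64.02 (median 50.7) in CA1, without overlap and higher in 9 of 9 animals. The difference was 0.58 ± 0.09, or 1.5-fold (adjusted p = 0.000208). In DG it had 31.6 to 61.2 (median 48.7), a DG minus CA3 difference of -0.68 ± 0.09 (adjusted p = 9.19e-06) with 0 of 9 animals higher in DG.

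Cacnb2, the beta 2 subunit, had 276 to 437 (median 376) in DG, against 482 to 600 (median 554) in CA3. The groups did not overlap, and the DG minus CA3 difference was -0.59 ± 0.07, or 1.51-fold lower (adjusted p = 5.39e-06). CA1 lay between, at 361 to 588 (median 432), and CA3 was higher than CA1 in 9 of 9 animals (0.32 ± 0.07, adjusted p = 0.00664). Cacna1c, the L-type pore Cav1.2, had 160 to 238 (median 209) in CA3, against 123 to 196 (median 138) in CA1, higher in 9 of 9 animals (0.49 ± 0.09, adjusted p = 0.00176), and DG was 0.54 above CA1 (adjusted p = 0.000431).

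Itpr1, the IP3 receptor of the store, was graded over the 3 regions. It had 1299 to 1962 (median 1581) in DG, 1639 to 2277 (median 1980) in CA3 and 1916 to 2589 (median 2408) in CA1. DG was lower than CA1 in 9 of 9 animals (-0.58 ± 0.06, adjusted p = 2.9e-06) and lower than CA3 (-0.34 ± 0.06, adjusted p = 0.000418), and CA3 was lower than CA1 (-0.24 ± 0.06, adjusted p = 0.0141). Neighbouring regions overlapped in range while each animal kept the order in 8 or 9 of 9 pairs.

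Prkcb, the beta isoform of protein kinase C, had 2146 to 3233 (median 2389) in DG, against 2705 to 3558 (median 3303) in CA1, lower in 9 of 9 animals (-0.37 ± 0.05, adjusted p = 7.15e-05). Hpcal1, a hippocalcin-like sensor, was higher in DG, with 226 to 473 (median 356), against 176 to 325 (median 203) in CA1, in 9 of 9 animals (0.65 ± 0.10, adjusted p = 7.55e-05). Its close relative Hpca, hippocalcin, ran the other way: 1805 to 2815 (median 1988) in DG, against 2373 to 3569 (median 3075) in CA3 (-0.54 ± 0.08, adjusted p = 3.34e-05). Necab2 had 257 to 492.9 (median 335) in DG, against 291 to 650 (median 545) in CA3 and 258 to 656 (median 590) in CA1. It was lower in DG than in CA3 (-0.49, adjusted p = 0.000103) and than in CA1 (-0.48, adjusted p = 0.000266).

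**Figure D4:**
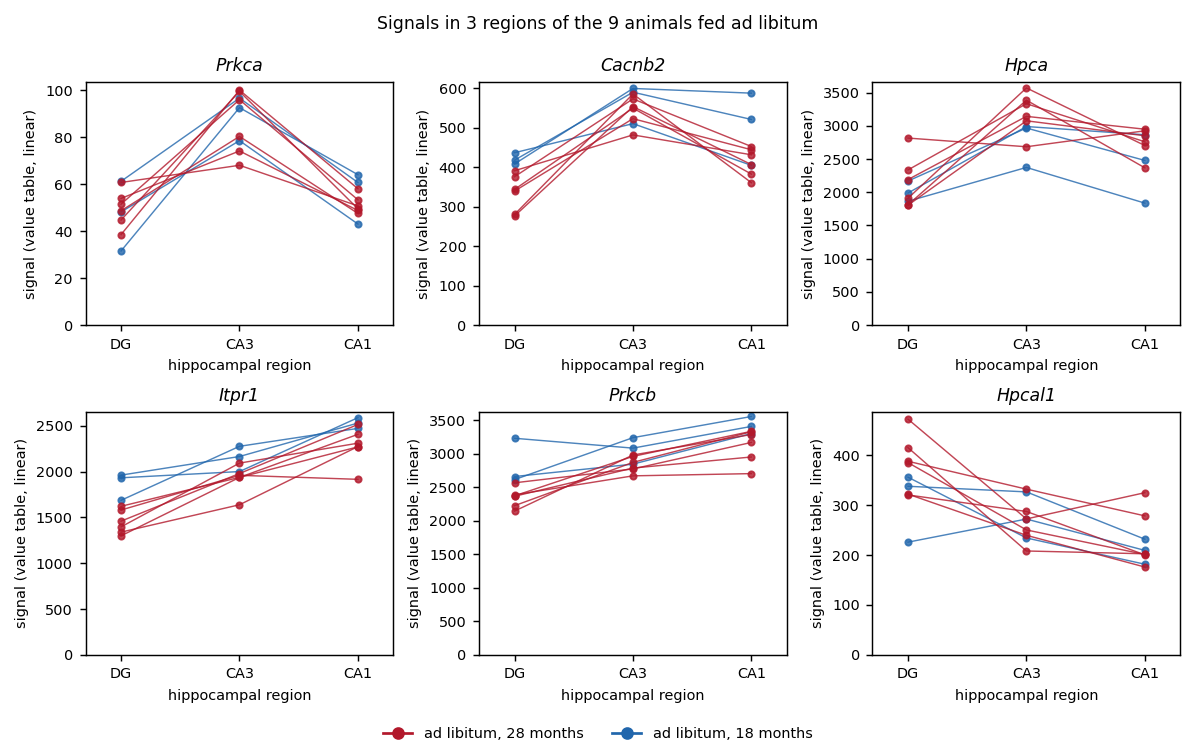
Linear signal in the value table (y axis, starting at 0) of 6 genes in DG, CA3 and CA1 (x axis, left to right) of the 9 ad libitum animals. Each line joins the 3 regions of 1 animal, red for 28 months and blue for 18 months. Prkca and Cacnb2 peak in CA3 in most animals, Itpr1 and Prkcb are lowest in DG in most, and Hpcal1 is highest there in most.

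Among pumps, Atp2b1 was lower in DG than in CA1 (-0.49, adjusted p = 0.000292), and Atp2b2 was higher in DG than in CA1 and CA3 (0.24 and 0.30). All 4 probe sets of Atp2b1 gave -0.48 to -0.50 between DG and CA1, of which 3 passed. The sensor Ncald was higher in DG (0.32 and 0.30), as were Camkk1 (0.45 and 0.33) and Camk2g (0.32 and 0.28). Camk4, a nuclear CaM kinase, was higher in CA3 than in CA1 (0.41) and lower in DG than in CA3 (-0.46). Remaining calls were Cacng3 (-0.36 in CA3 against CA1, 0.32 in DG against CA3), Cacna1b (0.27 in CA3 against CA1), Cacnb2 (-0.28 in DG against CA1), Hpca (-0.33 in DG against CA1), and, in DG against CA3, Prkcb (-0.22), Atp2b1 (-0.28), Cacnb4 (0.31) and Cacna1d (0.29), the last of which did not pass in dChip (adjusted p = 0.125).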

How the data were processed

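The authors deposited a table of all 45 arrays, called the value table here, as signals on a linear scale, and dChip signals in separate tables for age, diet and regions. For the value table, software and scaling are not stated. The detection calls (other unit) and the lists of changed probe sets with signed folds and p-values were also deposited, the lists as the authors' comparisons. The value table was used for the results because it alone holds all arrays on 1 scale. Between 58.9% and 67.4% of probe sets were called present on an array.

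Signals were raised by a pseudocount of 16, taken to log2 and filtered at the 40th percentile of mean log2 signal, which kept signals above 17.1 and left 18659 probe sets. Then limma 3.58.1 under R 4.3.3 was fitted, two-sided, with Benjamini-Hochberg adjustment across all kept probe sets. Age is the mean of ALO_GP and ALO_PP minus ALMA, diet the mean of the CRO classes minus the mean of the ALO classes, and performance PP minus GP. Each region was fitted on its 15 arrays with 5 classes. Regions were compared on 27 arrays of 9 animals with the animal as a fixed block, and age or diet by region on 45 arrays with a random block (consensus correlation 0.0602). Other settings were dChip signals, other pseudocounts and filters, quantile normalization, each replicate left out, performers alone and the poly-A set. Shares of genes count the brightest probe set of each of 9942 genes. The step was tested on simulated data.

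The members and lists were chosen with earlier results of these data known. Every member past the threshold is named, up to 12 per comparison (more between DG and CA3), with the values of up to 4 of smallest p that also passed in dChip. One description label repeats an animal code and another contradicts its title on performance, and the titles and characteristics were used.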

Additional observations from a re-analysis of the deposited data

Results flagged for a closer look

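In restricted DG, Cacnb1 had a signal of 274 on CRO_PP replicate 2, while the other 5 restricted DG arrays lay between 191 and 216, so this array stood apart from its group by the gap test for 6 values. In the same group, Necab2 had 599 on CRO_GP replicate 3, against 500 to 530 on the other 5 arrays. Such a gap was looked for in 49 groups of 6 values and chance flags about 1 in 20, so 2 flags are no more than chance gives. Both members had no overlap between restricted and ad libitum DG arrays with or without these values.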

How the results depend on the processing

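The counts of members called depended on the processing as follows, with the value in the results first. Age in CA1 (7) ran from 5 to 9 with a replicate left out, age in CA3 (11) from 6 to 14, and age in DG (6) from 2 to 9. The share of all probe sets called ran from 4.54% to 20.7%, 3.48% to 19.3% and 4.92% to 11.7% in the same order. Diet in CA1 (2) ran from 0 to 4, diet in CA3 (3) from 0 to 9, and diet in DG (11) from 7 to 12. Beside these counts, 0.922% to 10.2%, 3.67% to 21.7% and 16.9% to 24.6% of all probe sets were called. CA3 minus CA1 (7) ran from 3 to 9, and diet by region (0) from 0 to 3. The share of all probe sets beside these ranges is not given here, so no change particular to the members is read from them. In age DG, dChip, no filter and quantile normalization gave 2 (10.6%, 5.75% and 9.22% of all probe sets) and the compared classes alone gave 3 (6.44%). For diet in CA1, good performers alone and arrays of set B gave 0, beside 0% and 0.00536% of all probe sets. Every probe set of a member gave 4, beside 6.88%. Diet in CA3 gave 1 with dChip and with the dChip table of the region (8.91% and 9.24% of all probe sets). It gave 5 with a pseudocount of 64 (10.8%), and 0 in good or poor performers alone (1.99% and 1.6%). Diet in DG gave 5 in good and 5 in poor performers, beside 8.52% and 6.57% of all probe sets. It gave 20 with every probe set of a member, beside 22.9%. CA3 minus CA1 gave 13 with dChip, where 8.72% of genes were higher and 12.9% lower. It gave 17 with all 15 animals, for which the share is not given here. Diet by region gave 1 with dChip and 1 with a pseudocount of 64. The cause was not tested, apart from fewer arrays in some settings. Of single-gene values, 1311 kept their call, 250 kept the direction without passing, and 1 reversed: Slc8a2 with age in CA3 was -0.14 in dChip. Title numbers do not pair animals (mean residual correlation -0.0175 over 84 pairs with the same number, 0.00994 over 186 others). With the title number as replicate block, age gave 6, 11 and 5 calls in CA1, CA3 and DG and diet 2, 4 and 11. The shares of all probe sets called were then 8.93%, 6.42% and 9.84% for age, and 6.59%, 7.89% and 22.2% for diet.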
